A study of Mus musculus with 12 samples.

Results

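The cytosolic ribosomal protein genes were described in C2C12 GFP cells, a mouse myoblast line that expresses green fluorescent protein and fuses into myotubes. Members were the protein-coding genes whose mouse symbol begins with Rpl or Rps followed by a digit, plus *Rpsa*, *Rplp0*, *Rplp1*, and *Rplp2*, with the S6 kinase genes (Rps6k) and pseudogene symbols left out. The rule found 86 of the 22028 protein-coding genes among 55536 genes in the table. Of these, 77 encode proteins of the cytosolic ribosome and are called the core genes here, 46 for the 60S and 31 for the 40S subunit. The other 9 were kept apart, namely the paralogs *Rpl3l*, *Rpl10l*, *Rpl22l1*, *Rpl36al*, *Rpl39l*, *Rps27l*, and *Rps27rt*, and *Rpl7l1* and *Rps19bp1*, whose products are not cytosolic ribosomal proteins. *Fau*, which encodes a ribosomal protein fused to a ubiquitin-like protein, has another kind of symbol and fell outside the rule.

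The 12 RNA-seq samples came from cells on uncoated plates (control) or on coatings of Collagen I, of fibronectin, or of Geltrex™, a basement membrane matrix, with 3 samples in each of the 4 groups. All samples shared the 1 cell line and its GFP reporter, and nothing in the labels says that samples of a group came from separate cultures, so p-values measure the spread between these samples, which may be technical. The day of differentiation at which RNA for sequencing was taken was not given in the sources used here. Total counts ran from 22520404 to 27351766 per sample. Levels are given as CPM, which are counts scaled to library size by edgeR's TMM method. A gene was called when edgeR's quasi-likelihood test gave a Benjamini-Hochberg adjusted p of at most 0.05 over the 14499 genes tested. Counts at an unadjusted p are given for the core genes only, with no share of all genes beside them. The same holds for most counts from fits with other settings or with samples left out. All 77 core genes and 6 of the 9 kept apart passed the filter on low counts.

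A ribosome holds 1 copy of nearly every ribosomal protein, so the genes of both subunits are normally expressed together and at high levels in any growing cell. Their mRNAs start with a run of pyrimidines, the TOP motif, through which mTORC1 and the protein LARP1 control translation, mostly without a change in mRNA level. The gene copies scattered through the genome as processed pseudogenes make these mRNAs hard to count. In heart and skeletal muscle *Rpl3l* can take the place of *Rpl3* as muscle matures. Bulk counts cannot tell fewer cells of a type from less RNA per cell.

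RefSeq promoter entries (GRCm38.p6) matched 66 of the 86 symbols, 57 of them core genes. The stretches below hold 15 bases on each side of the annotated start on the gene's own strand, and are shown for those called genes on which the comparisons below turn that had an entry. Capitals mark the longest run of pyrimidines, and the first such run where runs tie, as in *Rps7*.
Rpl10a, chr17:28328456-28328485, plus strand: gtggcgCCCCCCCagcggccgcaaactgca
Rplp0, chr5:115559452-115559481, plus strand: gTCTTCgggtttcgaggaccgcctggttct
Rps7, chr12:28635939-28635968, minus strand: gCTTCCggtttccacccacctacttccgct
Rpl13, chr8:123102335-123102364, plus strand: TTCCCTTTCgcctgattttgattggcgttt
Rplp2, chr7:141447636-141447665, plus strand: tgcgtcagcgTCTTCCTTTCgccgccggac
Rpl41, chr10:128549154-128549183, minus strand: cacacgggccggCTCggaagtgacgacacc
Rpl9, chr5:65391417-65391446, minus strand: acgcagggCCCTgacggattacaagaacgt
A run of at least 8 pyrimidines (C or T), searched on the gene's own strand of these 30 bases, stood in 26 of 67 promoter entries of core genes (38.8%) and in 3943 of all 32851 entries. On the opposite strand such a run stood in 4.5% of the core entries and in 13.2% of all. *Rplp2* held a run of 10 and *Rpl13* a run of 9, while *Rpl41* held no run above 3 in this window. The marked run of *Rplp2* spans the annotated start and the other marked runs lie before it, so a run found here need not open the mRNA. These letters depend on where RefSeq places the start, and no match says only that the run is not in this window.

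The core genes took between 1.90% and 2.64% of all counts in a library. The share was 2.24%, 1.99%, and 2.12% in the control samples, 2.24%, 2.14%, and 2.64% on Collagen I, 1.90%, 1.91%, and 2.16% on fibronectin, and 2.24%, 2.24%, and 2.09% on Geltrex™. The groups overlapped except that both lower fibronectin samples lay under every other sample. The mean was 2.12% ± 0.128 (SD, n = 3) in the control, 2.34% ± 0.263 on Collagen I, 1.99% ± 0.145 on fibronectin, and 2.19% ± 0.0858 on Geltrex™. The spread between Collagen I samples exceeded the distance of their mean from the control mean.

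**Figure D1:**
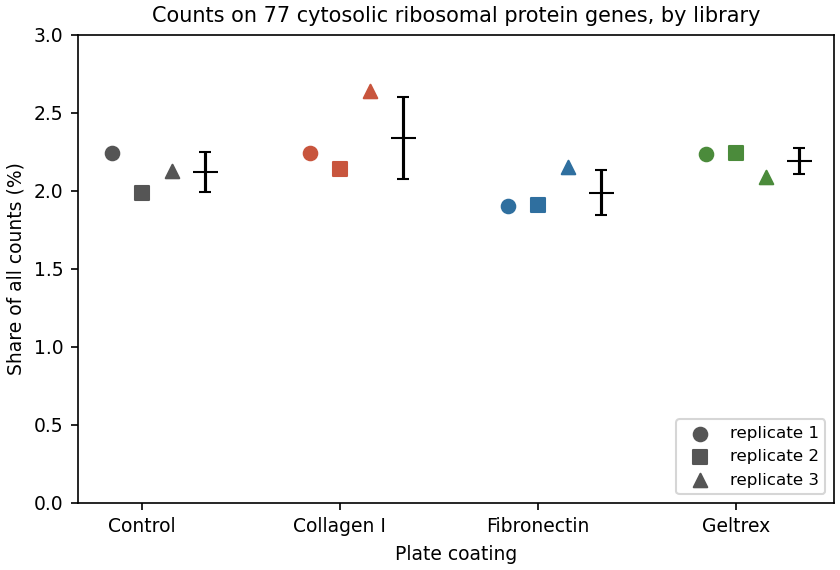
Share of all counts (%, y axis) that fell on the 77 core ribosomal protein genes in each library, by plate coating (x axis); symbols mark the replicate number and black bars the mean ± SD of 3 samples. Collagen I replicate 3 stands highest at 2.64%, and the other 11 libraries lie between 1.90% and 2.24%.

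Before any comparison, 3 libraries stood apart in these genes. In Collagen I replicate 3, 75 of the 77 core genes lay above their own mean over the 12 libraries, with a median deviation of 0.35 on the log2 scale, and 61 were higher there than in each of the other 11 libraries. *Rps3a1* was lower there than in each of the others. The sum did not set control replicate 3 apart (2.12% of counts), and fibronectin replicate 2 (1.91%) was low together with fibronectin replicate 1 (1.90%). Control replicate 3 and fibronectin replicate 2 differed from the rest gene by gene. In both, 20 core genes were lower than in each of the other 10 libraries, among them *Rps14*, *Rps27*, *Rplp1*, *Rpl13*, *Rpl18*, and *Rpl8*, and *Rpl35* and *Rps26* were higher. Over the 77 genes, the deviations of these 2 libraries from their own group means correlated at r = 0.95, against -0.88 to 0.80 for the other 53 pairs of libraries from different groups, as a description of points that share their libraries and depth. Over all genes tested, the deviations of these 2 libraries correlated at 0.31, and those of Collagen I replicate 3 and control replicate 1 at 0.33. How many of all genes were highest or lowest in the 3 libraries is not given here. Control replicate 3 and fibronectin replicate 2 also had the lowest transcript GC content weighted by counts (48.1% and 47.9%, against 48.4% to 48.8% elsewhere). Their share of counts on ribosomal protein pseudogenes was also the lowest (0.0319% and 0.0291%, against 0.0409% to 0.0519%). Whether these measures set the gene values was not tested.

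**Figure D2:**
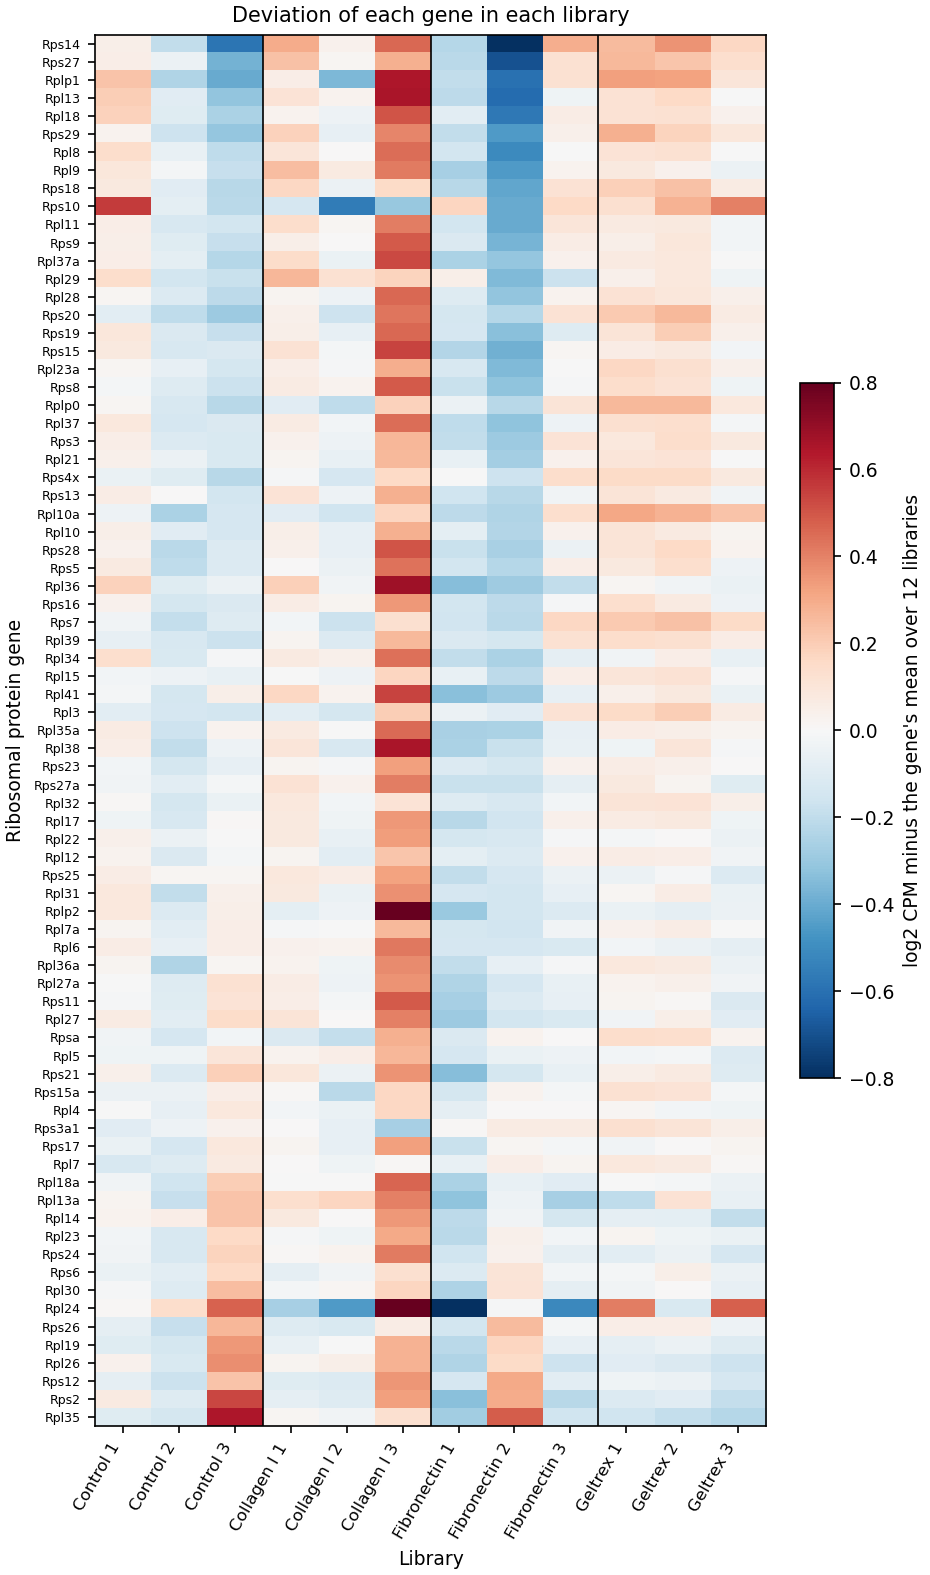
Deviation of each core gene (rows) from its mean over 12 libraries, in log2 CPM, for each library (columns, grouped by coating); red is above and blue below the gene's mean. Collagen I replicate 3 is red in 75 of 77 rows, and control replicate 3 and fibronectin replicate 2 share a pattern that runs from low *Rps14* at the top to high *Rpl35* at the bottom.

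*Rps14*, a protein of the 40S platform, shows the pattern. It stood at 276, 233, and 178 CPM in the control, 329, 274, and 368 CPM on Collagen I, 228, 144, and 327 CPM on fibronectin, and 319, 344, and 300.3 CPM on Geltrex™. The 2 lowest of the 12 values were those of control replicate 3 and fibronectin replicate 2. *Rpl35*, next to the exit tunnel of the 60S subunit, did the reverse, with 221, 214, and 369 CPM in the control and 194, 330.3, and 211 CPM on fibronectin, against 201 to 258 CPM in the 6 samples on Collagen I and Geltrex™. Neither gene was called in any comparison. The log2 fold change of *Rps14* over the control was 0.50 on Collagen I (SE 0.216, adjusted p = 0.301 in edgeR's test) and 0.49 on Geltrex™ (SE 0.216, adjusted p = 0.0973).

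A gene's level was set against its length as CPM per kb of its principal transcript. The core genes had a median of 329 CPM per kb over all 12 samples, with quartiles at 208 and 474. The highest were *Rpl10*, a late-joining 60S protein near the peptidyl-tRNA (787 CPM per kb), *Rps6*, the 40S protein phosphorylated by S6 kinase (701), and *Rpl41*, which encodes a very short peptide (700.0). Set against the length of all exons of the gene, the highest were *Rps15* (528 CPM per kb), *Rps3a1* (506), and *Rpl19* (424). The order of levels hardly differed between groups, with rank correlations over the 77 genes of 0.987, 0.993, and 0.978 between the control and Collagen I, fibronectin, and Geltrex™, as a description. The principal transcripts of *Rps15a* (5130 bases) and *Rps20* (3706 bases) are long in the annotation, so their levels per kb (33.6 and 56.8) are low for that reason.

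The lowest core genes by either length were *Rpl24*, *Rps10*, and *Rpl29*. *Rpl24* had 7 to 26 counts in a library (0.929 CPM per kb), *Rps10* had 22 to 47 (1.44), *Rpl29* had 127 to 200 (9.68), and *Rpl13a* had 351 to 530 (16.7). Counts this low cannot be read as these proteins being scarce. Of the 100-base stretches of the principal transcript, 80.1% in *Rpl24*, 47.7% in *Rps10*, 50.1% in *Rpl29*, and 55.2% in *Rpl13a* occur also in a transcript of another gene. *Rpl24*, *Rps10*, and *Rpl13a* overlap the annotated genes *Gm28037*, *RPS10-NUDT3*, and *Gm45713*, each of which was at 0 counts in every library. Over the core genes, the median was 42.8% of stretches shared, 33 genes shared 50% or more, and 5 shared none. The level per kb and the shared percent had a rank correlation of 0.133 over the 77 genes, and how multiply mapped reads were counted was not given in the sources used here.

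**Figure D3:**
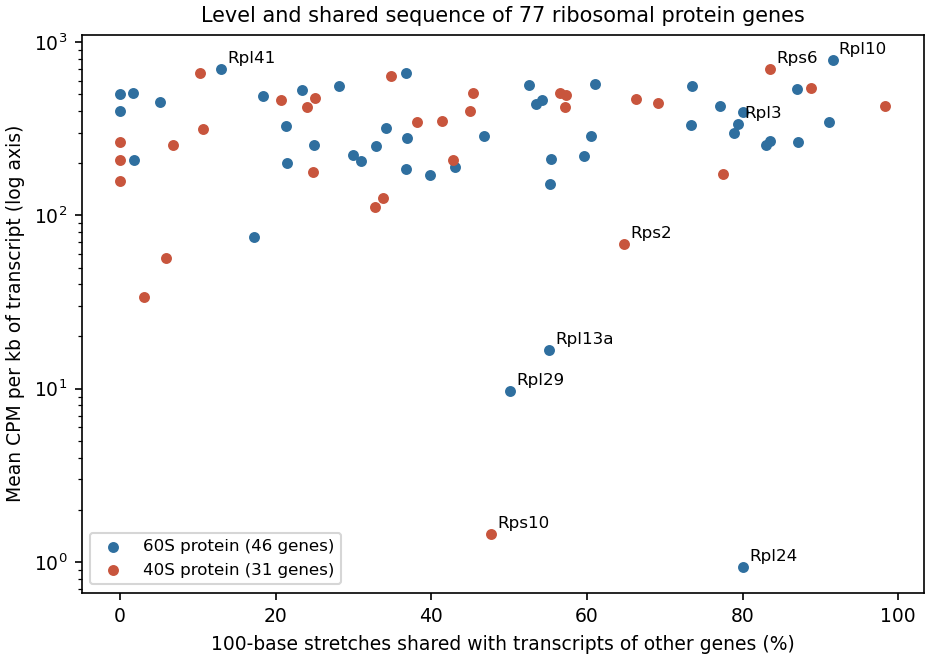
Mean CPM per kb of principal transcript over 12 samples (y axis, log scale) against the percent of the transcript's 100-base stretches found in transcripts of other genes (x axis), 1 point for each of the 77 core genes, coloured by subunit. *Rpl24*, *Rps10*, *Rpl29*, and *Rpl13a* lie far under the median of 329 CPM per kb, while other genes with as much shared sequence, such as *Rpl10*, do not.

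Counts were also listed on pseudogenes of these genes, and whether those reads came from the parent mRNAs was not tested. *Rps2*, at the mRNA entry of the 40S subunit, had 20047 counts over the 12 libraries and its pseudogene *Rps2-ps10* had 73544. In control replicate 3 and fibronectin replicate 2, *Rps2* had 2291 and 1971 counts, against 1304 to 1950 in the other libraries, while *Rps2-ps10* had 3802 and 3462, against 5467 to 7348. The pseudogene was at its lowest in these 2 libraries. Scaled for depth, *Rps2* stood at 97.3 and 82.5 CPM there, against 53.2 to 84.1 CPM in the others, so in fibronectin replicate 2 it was within their range. *Rpl3-ps1* had 22826 counts, which is 17.1% of the *Rpl3* count. Levels of genes with such copies are uncertain.

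On Collagen I compared with the control, the log2 fold changes of the core genes lay mostly above 0, and no core gene was called. The median log2 fold change was 0.15, and 70 of the 77 genes lay above 0 and 7 below. In edgeR's test 0 were called in either direction, with 15 higher and 0 lower at an unadjusted p under 0.05, and DESeq2 also called 0, while 1.12% of all genes tested were called, 0.2% higher and 0.917% lower. The values ran from -0.49 (*Rps10*) to 0.50 (*Rps14*). After *Rps14*, the highest were *Rpl13* (0.34), *Rps29* (0.33), *Rps20* (0.31), and *Rpl37a* (0.31), and after *Rps10*, the lowest were *Rpl35* (-0.14), *Rps2* (-0.13), *Rpl24* (-0.08), and *Rps3a1* (-0.07). For 75 of the 77 genes the 95% interval of the log2 fold change excluded a 2-fold change in either direction. Without Collagen I replicate 3 the median fell to 0.030.

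*Rpl13*, a surface protein of the 60S subunit, had 263, 216, and 184 CPM in the control, 247, 234, and 360.1 CPM on Collagen I, 199, 149.7, and 224 CPM on fibronectin, and 248, 256, and 229 CPM on Geltrex™. Only Collagen I replicate 3 lay above every control sample. *Rps29*, a zinc-binding protein of the 40S head, had 69.6, 60.9, and 55.0 CPM in the control and 77.8, 65.3, and 89.5 CPM on Collagen I, and the groups overlapped (log2 fold change 0.33, SE 0.13, adjusted p = 0.257 in edgeR's test).

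On fibronectin compared with the control, where 31.9% of all genes tested were called (17.1% higher and 14.7% lower; 29.1% and 13.1% of the genes with a mean of at least 100 CPM), 0 of the 77 core genes were called in either direction by edgeR's test. At an unadjusted p under 0.05, 0 were higher and 3 lower, and DESeq2 called 0. The median log2 fold change was -0.08, with 14 genes above 0 and 63 below. Their middle 50% spanned 0.12 on the log2 scale, against 0.52 for all genes tested. It spanned 0.40 for the genes with a mean of at least 100 CPM. Of the 77 intervals of core genes, 76 excluded a 2-fold change. The 5 lowest were *Rpl24* (-0.77, from at most 26 counts in a library), *Rpl36* (-0.29), *Rps2* (-0.25), *Rpl13a* (-0.24), and *Rpl27* (-0.23). The 5 highest were *Rps4x* (0.12), *Rpl3* (0.12), *Rps20* (0.11), *Rpl39* (0.08), and *Rps3a1* (0.08). Without Collagen I replicate 3, which is in neither group but shares in the estimate of spread, 4 were called lower, and without fibronectin replicate 2 or 3, 1 was called lower.

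On Geltrex™ compared with the control, 5 of the 77 core genes rose and 0 fell by edgeR's test, while 16.4% of all genes tested rose and 16.6% fell (33.0% in all), as did 20.5% and 13.5% of those with a mean of at least 100 CPM. At an unadjusted p under 0.05, 9 were higher and 1 lower. The genes were *Rpl10a*, *Rps20*, *Rplp0*, *Rps7*, and *Rpl3*, each by 1.33-fold or less, and in each the 3 Geltrex™ samples lay above the 3 control samples. The median over the core genes was 0.09, with 54 genes above 0 and 23 below.

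*Rpl10a*, the protein of the L1 stalk that guides the leaving tRNA (chr17:28328471-28331033 in GRCm38, as all gene positions here), had 185, 159.5, and 173 CPM in the control, 179, 170.4, and 214 CPM on Collagen I, 164, 161, and 209 CPM on fibronectin, and 236, 231, and 223 CPM on Geltrex™. All 3 Geltrex™ samples exceeded the other 9. The log2 fold change over the control was 0.41 (SE 0.107, adjusted p = 0.00754 in edgeR's test). It was called in all 24 settings tried, alternatives and left-out samples together. All of these settings started from the same counts, and 87.1% of the 100-base stretches of *Rpl10a* are shared with other genes.

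*Rplp0*, the base of the P stalk that recruits elongation factors (chr5:115559467-115563727), had 663, 599.6, and 561 CPM in the control and 787, 787, and 696 CPM on Geltrex™. The log2 fold change was 0.32 (SE 0.11, adjusted p = 0.0371 in edgeR's test). Its partners of the flexible stalk were not called, with 0.36 for *Rplp1* (SE 0.219, adjusted p = 0.222) and -0.07 for *Rplp2* (SE 0.172, adjusted p = 0.802). *Rplp1* ran at 127, 91.6, and 81.5 CPM in the control and 136, 135, and 115 CPM on Geltrex™, with overlap.

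*Rps20*, of the 40S head (chr4:3831334-3835665), had 196, 181, and 170.4 CPM in the control and 241, 249.6, and 218 CPM on Geltrex™ (log2 fold change 0.37, SE 0.128, adjusted p = 0.0364 in edgeR's test). *Rps7*, of the 40S body (chr12:28630854-28635953), had 376, 336, and 358 CPM in the control and 445, 452, and 428 CPM on Geltrex™ (0.31, SE 0.102, adjusted p = 0.0299). In both genes the groups were separate. Of the 100-base stretches of *Rps7*, 66.3% are shared with other genes. *Rpl3*, whose product lies beside the peptidyl transferase centre (chr15:80077791-80091868), had 426, 412, and 408 CPM in the control, 425, 409.7, and 518 CPM on Collagen I, 437, 424, and 489 CPM on fibronectin, and 502, 517, and 473 CPM on Geltrex™. Over the control, the change on Geltrex™ was 0.26 on the log2 scale (SE 0.0919, adjusted p = 0.0405 in edgeR's test), and 79.4% of its 100-base stretches are shared with other genes.

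*Rps29* had 83.1, 77.3, and 72.9 CPM on Geltrex™, above every control sample, but was not called (0.33, SE 0.13, adjusted p = 0.0629 in edgeR's test). The lowest values on Geltrex™ were those of *Rpl35* (-0.38), *Rps2* (-0.32), *Rpl26* (-0.23), *Rpl14* (-0.22), and *Rpl19* (-0.13), and none of them was called. *Rpl35*, *Rps2*, *Rpl26*, *Rpl14*, and *Rpl19* were each highest of the 3 control samples in replicate 3. Without control replicate 3, without control replicate 2, without Geltrex™ replicate 1, or without Geltrex™ replicate 2, 1 core gene stayed called, *Rpl10a*, and without Geltrex™ replicate 3 there were 3. With the groups compared alone in the fit, 12 were called higher and 1 lower. Without Collagen I replicate 2 or 3 or fibronectin replicate 2 or 3, 8 or 9 were called higher.

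**Figure D4:**
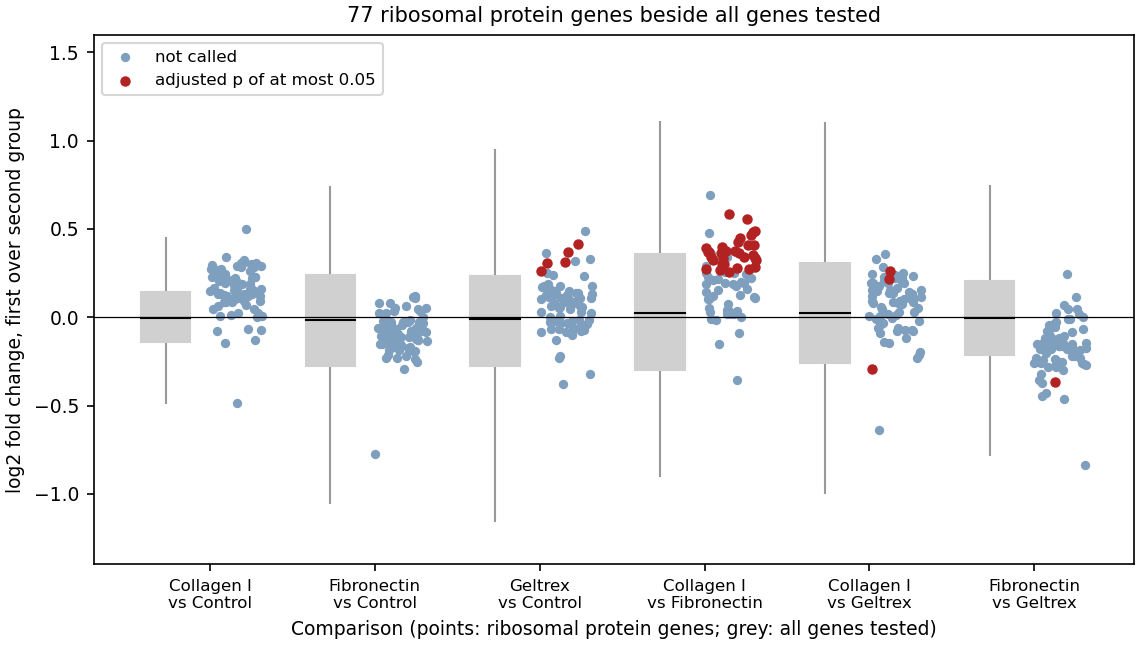
Log2 fold change (y axis) of the 77 core genes (points) in the 6 comparisons (x axis), the first group named over the second; red points have an adjusted p of at most 0.05. Grey boxes give the quartiles, black lines the median, and thin lines the 5th to 95th percentile of all 14499 genes tested. The core genes lie in a narrower band than all genes, which include many of lower level, and 32 are red in the comparison of Collagen I with fibronectin. Against genes with a mean of at least 100 CPM the contrast is smaller. For Collagen I against the control, the middle 50% spans 0.15 in the core genes and 0.18 in those genes.

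The largest number of calls came between Collagen I and fibronectin. By edgeR's test 32 core genes were higher on Collagen I and 0 were lower, against 22.1% and 22.9% of all genes tested (45.0% in all). Among the 2335 genes with a mean of at least 100 CPM, 16.5% were called higher and 41.7% lower. The 60S subunit had 19 of its 46 genes called and the 40S subunit 13 of 31, with median log2 fold changes of 0.27 and 0.25. Over the 77 genes the median was 0.26, with 72 above 0 and 5 below, against 0.02 for all genes tested. The largest difference of a called core gene was 1.5-fold (*Rpl36*), and 10 of the 32 had samples of the 2 groups that overlapped.

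*Rpl36*, a small 60S protein (chr17:56613416-56614243), had 65.0, 55.9, and 91.1 CPM on Collagen I and 45.0, 46.679, and 49.6 CPM on fibronectin, with 53.3 to 64.8 CPM in the control and 54.8 to 57.6 CPM on Geltrex™. The groups did not overlap, and the log2 fold change was 0.59 (SE 0.135, adjusted p = 0.00267 in edgeR's test). *Rpl41* (chr10:128548114-128549305) had 422, 384, and 549 CPM on Collagen I and 299, 308, and 360.0 CPM on fibronectin (0.49, SE 0.115, adjusted p = 0.00321). *Rpl9*, near the site where factors bind the 60S subunit, had 467, 415, and 524 CPM on Collagen I and 328, 288, and 402 CPM on fibronectin (0.47, SE 0.117, adjusted p = 0.00461). In both the lowest Collagen I sample exceeded the highest fibronectin sample. Of the 100-base stretches of *Rpl9*, 87.0% are shared with other genes.

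For *Rpl13*, the values above gave 0.55 on the log2 scale (SE 0.168, adjusted p = 0.0139 in edgeR's test). Of its 100-base stretches, 78.9% are shared with other genes. *Rplp2* had 67.3, 69.1, and 126 CPM on Collagen I and 57.7, 64.2, and 65.7 CPM on fibronectin (0.48, SE 0.172, adjusted p = 0.0318). The third Collagen I sample of *Rplp2* stood far above the other 2, and without it the log2 fold change was 0.13. *Rpl24* had the highest value of all core genes, 0.69, but was not called (SE 0.444, adjusted p = 0.216). The lowest were *Rps10* (-0.36), *Rps3a1* (-0.15), *Rps26* (-0.09), *Rpl35* (-0.02), and *Rpl7* (-0.01).

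The number of calls depended on single libraries. It was 9 without Collagen I replicate 3, 12 without fibronectin replicate 2, and 14 without fibronectin replicate 1, and with only these 2 groups in the fit it was 15. The shares of all genes without fibronectin replicate 1 or 2, or with only these 2 groups, are not given here. Without Collagen I replicate 3, 17.5% of all genes tested were still called higher, and the median of the core genes was 0.12. The 9 that remained were *Rpl9*, *Rpl13a*, *Rpl27*, *Rpl34*, *Rpl35a*, *Rpl36*, *Rpl41*, *Rps25*, and *Rps27a*, all among the 32. Of these, *Rpl9*, *Rpl13a*, *Rpl27*, *Rpl36*, and *Rpl41* were called in all 24 settings. Without control replicate 3 and fibronectin replicate 2 together, 12 of the 77 were called, while 16.7% of all genes tested were called higher in that fit, so the share of the core genes was near that of all genes. Of these, 9 were among the 32, and *Rpl35*, *Rpl26*, and *Rps2* were called in addition. This setting and the one that also left out Collagen I replicate 3 were chosen after seeing the data.

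**Figure D5:**
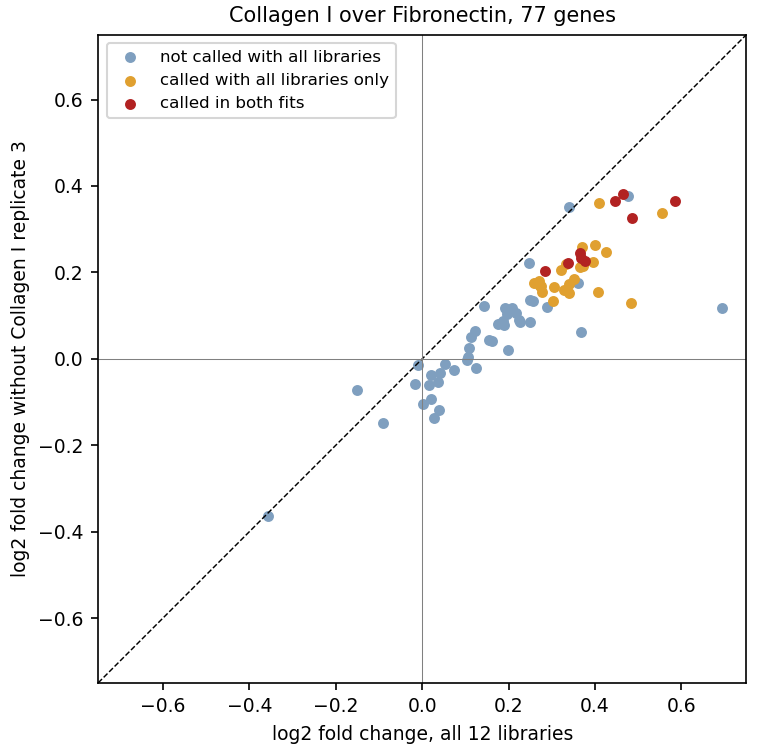
Log2 fold change of the 77 core genes on Collagen I over fibronectin with all 12 libraries (x axis) and without Collagen I replicate 3 (y axis); the dashed line marks equal values. Most points lie under the line, and 9 of the 32 called genes (red) remain called without that library.

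The longer core transcripts had lower values in this comparison, with a rank correlation of -0.42 between the log2 fold change and transcript length over the 77 genes and -0.34 over all genes tested. With GC content the correlations were 0.31 and 0.32. These are descriptions over genes measured in the same libraries, and the part of length and GC content in the result was not tested. With each library's GC content in the fit as a covariate, 38 core genes were called, and the share of all genes called in that fit is not given here.

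Between Collagen I and Geltrex™, 2 core genes were higher on Collagen I and 1 lower by edgeR's test, against 18.2% and 19.0% of all genes tested (37.1% in all). *Rpl14*, a 60S protein, was higher on Collagen I at 296, 281, and 357 CPM, against 267, 266, and 245 CPM on Geltrex™ (log2 fold change 0.26, SE 0.0945, adjusted p = 0.0386). *Rps25*, a 40S protein used by viral internal ribosome entry sites, was higher at 213, 209.6, and 251 CPM, against 194, 199, and 186 CPM (0.22, SE 0.0803, adjusted p = 0.0455). *Rpl10a* was lower on Collagen I (-0.29, SE 0.107, adjusted p = 0.0421). In all 3 genes the groups did not overlap. The other extremes were *Rplp2* (0.36), *Rpl36* (0.33), *Rpl13a* (0.29), and *Rps24* (0.25) at the top and *Rps10* (-0.64), *Rplp0* (-0.23), *Rps7* (-0.22), and *Rps3a1* (-0.20) at the bottom, none of them called. The median of 0.09 turned to -0.03 without Collagen I replicate 3, with 0 genes then called higher and 5 lower, and without any 1 of the Geltrex™ replicates 0 were called. Without Collagen I replicate 2, 9 were called, all higher, and without control replicate 2, control replicate 3, or fibronectin replicate 1, 1 was called.

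Between fibronectin and Geltrex™, 0 core genes were higher on fibronectin and 1 was lower by edgeR's test, against 10.3% and 9.06% of all genes tested (19.3% in all). The gene was *Rpl10a* (-0.37, SE 0.107, adjusted p = 0.0252). The median was -0.16, with 7 genes above 0 and 70 below, and at an unadjusted p under 0.05, 15 were lower. The other low values were *Rpl24* (-0.84), *Rps14* (-0.46), *Rplp1* (-0.45), *Rps27* (-0.43), and *Rps29* (-0.37), and the highest were *Rpl35* (0.25), *Rps12* (0.11), *Rps2* (0.07), *Rpl19* (0.05), and *Rpl26* (0.05). *Rps14*, *Rplp1*, *Rps27*, and *Rps29* were at their lowest of the 12 libraries in fibronectin replicate 2. Without fibronectin replicate 1, fibronectin replicate 2, or any 1 Geltrex™ replicate, 0 were called, and without fibronectin replicate 3 or Collagen I replicate 3, 9 and 10 were called lower. DESeq2 called 6 lower.

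No core gene changed by 2-fold or more in any of the 6 comparisons, where 0.131% (Collagen I against the control), 6.66% (fibronectin against the control), 9.14% (Geltrex™ against the control), 8.46% (Collagen I against fibronectin), 9.32% (Collagen I against Geltrex™), and 3.98% (fibronectin against Geltrex™) of all genes tested were called at that fold. Altogether 40 of the 77 were called in no comparison, and the matching share of all genes tested is not given here. The comparisons share samples, so their calls are not independent of each other. *Rpl10a* was the core gene called in all 3 comparisons with Geltrex™, and the 2 without the control lost it in some left-out samples, 6 of 12 for Collagen I and 5 of 12 for fibronectin.

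By place in the ribosome, the calls were spread over both subunits. Of the 14 proteins of the 40S head, 7 were higher on Collagen I than on fibronectin, with a median log2 fold change of 0.26, while 22.1% of all genes tested were called higher and the calls over the core genes fell from 32 to 9 without Collagen I replicate 3, and 1 (*Rps20*) was higher on Geltrex™ than in the control. Of the 7 proteins around the 60S exit tunnel, 1 (*Rpl23a*) was called higher on Collagen I, with a median of 0.20. *Rpl5* and *Rpl11*, which join the 5S rRNA and can bind the p53 inhibitor MDM2, had 0.19 and 0.33 in that comparison, and *Rpl11* was called. *Rps27a*, which encodes a ubiquitin fused to a 40S protein, was called as well, at 306, 289, and 375 CPM on Collagen I and 249.9, 250.3, and 269 CPM on fibronectin (0.34, SE 0.092, adjusted p = 0.00794 in edgeR's test).

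The muscle paralog *Rpl3l* (chr17:24727820-24736143) had 9, 3, and 1 counts in the control, 1, 2, and 5 on Collagen I, 1, 2, and 1 on fibronectin, and 1, 1, and 3 on Geltrex™. It failed the filter on low counts, so it was not tested, and genes most like it were not sought. *Rpl3* had 9619 to 12599 counts in a library. At 30 counts over the 12 libraries, against 133685 for *Rpl3*, a difference in *Rpl3l* between coatings was not detectable at this depth. *Rpl10l* and *Rpl39l*, paralogs known from testis, were at 0 counts in every library, which allows up to 3 counts, or 0.110 to 0.133 CPM before TMM scaling, for counting error only. *Rpl36al* had 4 to 12 counts, against 2777 to 3898 for *Rpl36a*, and 59.0% of its 100-base stretches are shared with other genes.

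*Rpl22l1*, the paralog of *Rpl22* that can stand in for it in the 60S subunit, had 25.4, 22.7, and 15.8 CPM in the control, 27.1, 23.7, and 30.4 CPM on Collagen I, 28.9, 15.4, and 32.0 CPM on fibronectin, and 33.4, 36.6, and 30.9 CPM on Geltrex™. It was higher on Geltrex™ than in the control (log2 fold change 0.66, SE 0.211, adjusted p = 0.0255 in edgeR's test), with no overlap, and was called in 9 of the 12 fits that left out 1 library. It lost the call without control replicate 3 (0.48) and without Geltrex™ replicate 1 (0.67) or 2 (0.60), and its value was 0.32 with library GC content as a covariate. Its 2 lowest values were those of control replicate 3 and fibronectin replicate 2, and 50.8% of its stretches are shared with other genes. *Rpl22* itself had 184 to 195 CPM in the control and 184 to 191 CPM on Geltrex™.

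*Rps27l*, a p53-responsive paralog of *Rps27*, was called in no comparison, at 37.2, 40.9, and 45.8 CPM in the control and 36.7 to 39.5 CPM on Geltrex™. In Collagen I replicate 3 it was at its lowest, 32.0 CPM. *Rps27* had 112 to 151 CPM in the control and 160.1 to 174 CPM on Geltrex™, and *Rps27rt*, a retrotransposed copy that shares 89.5% of its stretches, had 26 to 60 counts in a library. *Rps27* was lowest and *Rps27rt* highest among the control samples in replicate 3.

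*Rps19bp1*, which encodes an SIRT1 regulator that binds RPS19, moved with the coatings. It had 18.7, 16.8, and 17.7 CPM in the control, 17.4, 18.4, and 22.6 CPM on Collagen I, 12.03, 13.1, and 14.1 CPM on fibronectin, and 14.6, 14.1, and 12.8 CPM on Geltrex™. All 6 samples on fibronectin and Geltrex™ lay under all 6 others. It fell by 0.45 on the log2 scale on fibronectin (SE 0.113, adjusted p = 0.00717) and by 0.36 on Geltrex™ (SE 0.113, adjusted p = 0.0219) against the control in edgeR's test, and exceeded fibronectin (0.58, adjusted p = 0.000812) and Geltrex™ (0.49, adjusted p = 0.00307) on Collagen I. Without control replicate 1 or Geltrex™ replicate 2 or 3 the call on Geltrex™ against the control was lost, at -0.32, -0.37, and -0.31. *Rps19* itself had 75.8 to 91.6 CPM in the control, 68.1 to 80.0 CPM on fibronectin, and 88.4 to 98.4 CPM on Geltrex™. *Rpl7l1*, a factor of ribosome assembly, was called in no comparison, at 82.1 to 113 CPM.

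Genes that make and use ribosomes changed in both directions, as did all genes tested. The counts of each list below stand beside 17.1% of all genes tested rising and 14.7% falling on fibronectin (31.9% in all) and 16.4% rising and 16.6% falling on Geltrex™ (33.0% in all). Of 68 ribosome biogenesis factors tested, 5 rose and 7 fell on fibronectin, and 1 rose and 17 fell on Geltrex™, relative to the control. Among those that fell on Geltrex™ were *Rrp12* (-0.65), *Nop16* (-0.64), and *Sbds* (-0.61), a factor that releases eIF6 from the 60S subunit, while *Wdr43*, of the small subunit processome, rose (0.33). On Collagen I relative to fibronectin, 10 were higher and 21 lower, against 22.1% and 22.9% of all genes tested. On Collagen I relative to the control, *Nop2*, an rRNA methyltransferase, fell by 0.34 on the log2 scale and the other 67 were not called. Of 19 RNA polymerase I genes, 1 rose and 2 fell on fibronectin and 1 rose and 5 fell on Geltrex™. *Polr1b*, the second largest subunit, fell on both (-0.45 and -0.54).

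Of the 20 other TOP mRNAs, 3 rose and 2 fell on fibronectin, and 3 rose and 1 fell on Geltrex™, while 31.9% and 33.0% of all genes tested were called. *Naca*, a chaperone of the emerging peptide, had 835 ± 25.9 CPM (SD, n = 3) in the control, 554 ± 42.3 CPM on fibronectin, and 573 ± 4.96 CPM on Geltrex™ (log2 fold changes -0.59 and -0.54). *Hnrnpa1* rose on both (0.40 and 0.51), as did *Vim* (0.21 and 0.34). Of 34 initiation factors, 2 rose and 5 fell on fibronectin and 3 rose and 5 fell on Geltrex™, with *Eif4a2*, a helicase subunit of eIF4F, at -0.45 on fibronectin and *Eif4b* at 0.22 on Geltrex™. Of 11 elongation and termination factors tested, 2 rose and 1 fell on fibronectin and 1 rose on Geltrex™, which was *Eif5a2* (1.05 and 0.69). On Collagen I relative to the control, 0 genes of these 3 lists were called in edgeR's test.

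Among 25 regulators of mTORC1 and TOP mRNAs tested, 6 rose and 5 fell on fibronectin and 3 rose and 5 fell on Geltrex™, beside 31.9% and 33.0% of all genes tested, so the count on Geltrex™ was near that of all genes. *Myc*, a transcription factor that drives ribosome production, had 14.7 ± 2.15 CPM (SD, n = 3) in the control and 99.7 ± 5.22 CPM on Geltrex™ (log2 fold change 2.77, SE 0.191). *Ddit4*, an inhibitor of mTORC1, had 25.03 ± 2.67 CPM in the control and 5.90 ± 0.397 CPM on Geltrex™ (-2.08, SE 0.148). From this list *Sesn2* (0.33) and *Sesn3* (0.31) also rose on Geltrex™, and *Tsc1* (-0.54) and *Sesn1* (-0.52) also fell. The core genes had a median of 0.09 in the same comparison. On fibronectin the highest called were *Larp4* (0.55), *Sesn3* (0.48), and *Sesn2* (0.46). The lowest called there were *Rps6kb2* (-0.56), *Rptor* (-0.50), and *Akt1s1* (-0.37). Of 8 S6 kinase genes tested, 2 rose and 2 fell on fibronectin and 2 fell on Geltrex™, among them *Rps6kb1*, S6 kinase 1 (-0.32). Of 14 snoRNA host genes tested, 3 rose and 1 fell on Geltrex™, with *Snhg17* (0.64) and *Snhg15* (0.62) highest.

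Of 10 myotube genes, none was at 0 in any group, and their sum moved with the coatings. The summed level of these genes was 7036 to 8097 CPM in the control, 7619 to 7914 CPM on Collagen I, 2299.8 to 2725 CPM on fibronectin, and 3175 to 3466 CPM on Geltrex™, and all 10 fell on both fibronectin and Geltrex™ relative to the control. The summed level of 10 cycling genes was 392 to 452 CPM in the control, 317 to 328 CPM on Collagen I, 854 to 1095 CPM on fibronectin, and 897 to 963 CPM on Geltrex™, and 9 of 10 rose on each of the latter coatings. Of 4 myoblast genes, 0 rose and 1 fell on each of these coatings, *Cdh15* on fibronectin (-0.27) and *Myod1* on Geltrex™ (-0.23). The median core gene differed from the control by -0.08 and 0.09 on the same coatings. The part of these cell states in the calls of ribosomal protein genes was not tested. Endothelial, macrophage, and adipocyte markers summed to at most 3.49, 1.59, and 0.388 CPM in any library, with *Lep* and *Cidec* at 0 in 3 of the 4 groups each and *Adgre1* at 0 in every group, and the neuron list, led by *Tubb3*, to 16.9 to 58.5 CPM.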

How the data were processed

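RNA-seq of 12 samples was used, 3 on each of 4 plate surfaces, grouped by their GEO titles. Per the labels and the study's methods, the authors used Trimmomatic for trimming, HISAT2 for alignment, and featureCounts for counting, and they deposited raw counts per gene. The genome build and the counting rules for strand and multiply mapped reads are not given in the sources used here. All 55536 identifiers matched GENCODE M21 (GRCm38), which gave names, positions, and lengths. The counts were fitted with edgeR 4.0.16 (R 4.3.3): filterByExpr (minimum count 10, total 15), TMM, 1 quasi-likelihood model over 12 samples with 8 residual degrees of freedom, and Benjamini-Hochberg adjustment over 14499 genes.

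Replicates of a group differed by more than sampling noise, so each counted as 1 sample. Level per length used the APPRIS principal transcript. Shared sequence was the percent of its 100-base stretches present in another gene's transcripts. Intervals of fold changes are 95%, and those at 0 counts cover counting error only. Genes named were *Rpl3*, *Rpl3l*, the paralogs with their partners, and the 5 highest and 5 lowest core genes per comparison. Called genes of at least 2-fold and the 3 highest and lowest levels by length were named as well. So were some of the extremes of each list among genes called against the control. A few more were named after their values were seen, such as *Rplp0*, *Rps7*, *Rps25*, *Rpl9*, *Rps27a*, and the pseudogenes. Members and lists were chosen with earlier results of these data known. Alternatives were DESeq2 1.42.0, other scalings, filters and sample sets, a replicate block, a covariate of library GC content from the study's read quality table, and each sample left out. The fit was tested on simulated data.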

Additional observations from a re-analysis of the deposited data

How the results depend on the processing

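The median log2 fold change of the core genes kept its direction in every setting tried except for Collagen I against Geltrex™. Samples left out moved the number of core genes called between 9 and 41 for Collagen I against fibronectin, 0 and 9 for Collagen I against Geltrex™, 0 and 4 for fibronectin against the control, 0 and 10 for fibronectin against Geltrex™, and 1 and 9 for Geltrex™ against the control, and left it at 0 for Collagen I against the control. The medians then ran from 0.030 to 0.23 (Collagen I against the control), 0.12 to 0.33 (Collagen I against fibronectin), and -0.028 to 0.18 (Collagen I against Geltrex™).

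In the order Collagen I, fibronectin, and Geltrex™ against the control, no filter on low counts gave 2, 1, and 12 calls. DESeq2 gave 8 on Geltrex™ and 6 for fibronectin against Geltrex™, where no filter gave 9. Upper-quartile scaling gave 1 on fibronectin and 1 on Geltrex™, and at least 10 counts in every sample gave 1 and 2. With only the groups compared, there were 1 on fibronectin, 13 on Geltrex™, 15 for Collagen I against fibronectin, and 11 for fibronectin against Geltrex™. The library GC covariate gave 2 on fibronectin, 1 on Geltrex™, and 0 for fibronectin against Geltrex™, and with the replicate block as well it gave 1 on Collagen I, 1 on Geltrex™, and 0 for fibronectin against Geltrex™. Without the low-GC libraries (control replicate 3 and fibronectin replicate 2), 2 were called on Geltrex™, 12 for Collagen I against fibronectin, and 0 for fibronectin against Geltrex™. Without Collagen I replicate 3 as well, there were 3 on fibronectin, 9 on Geltrex™, 8 for Collagen I against fibronectin (median 0.11), and 7 for Collagen I against Geltrex™ (median -0.031). *Rpl35*, uncalled at -0.02 on Collagen I over fibronectin, was called at 0.26 and 0.21 in these last settings. The causes were not tested. Apart from the shares named above, how many of all genes were called in these settings is not given here, so a changed count may not be particular to the core genes.

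Same-numbered Collagen I and fibronectin samples had deviations that correlated at 0.047, 0.17, and 0.23, and each of these 6 samples correlated best with its own number, a hint from the data and not from the design. Collagen I and control samples gave -0.15, 0.18, and -0.04, and no label says that a number marks a shared batch, so samples were not treated as paired. The replicate block gave 36 calls for Collagen I against fibronectin, 6 for Geltrex™ against the control, and 3 for fibronectin against Geltrex™. Low counts limit what can be read from *Rpl3l*, *Rpl24*, *Rps10*, and *Rpl36al*, and why these counts were low was not tested.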
